A study of Mus musculus with 18 samples.

Results

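The 10 circadian clock genes Arntl, Clock, Per1, Per2, Per3, Cry1, Cry2, Nr1d1, Nr1d2 and Dbp were followed through polyadenylated RNA of cultured mouse brown adipocytes. They were picked by symbol from the count table, where each had 1 row among 54347 listed genes, and all 10 were among the 14949 genes that passed the filter on low counts. The cells were wt1-SAM, an immortalised brown preadipocyte line carrying the SAM machinery for CRISPR activation. They were differentiated with rosiglitazone, T3, dexamethasone, insulin, indomethacine and IBMX, a cocktail that every group received. At day 4 all wells were reverse transfected with an LNA, a short modified antisense oligonucleotide that directs cleavage of the RNA it binds. The non-targeting ctrlA was compared with LNA1 and LNA2, both directed against the long non-coding RNA Gm15551. At day 7 the cells were harvested, either unstimulated or after 24 h in 1 µM isoproterenol, a β-adrenergic agonist. The 6 groups of LNA by stimulation held 3 libraries each, numbered 2, 3 and 4, which gives 18 libraries. The line is a single cell line, and the sources used here do not say whether libraries of 1 number came from 1 culture or at what hour the cells were harvested. The p values therefore measure the spread between these libraries, which may be technical.

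In mammalian cells the clock is a loop of transcription factors. ARNTL, also called BMAL1, pairs with CLOCK and activates genes with an E-box in their promoters, among them the Per and Cry genes, Nr1d1, Nr1d2 and Dbp. The PER and CRY proteins enter the nucleus and block that pair, while NR1D1 and NR1D2, also called REV-ERBα and REV-ERBβ, are haem-binding receptors that repress Arntl. DBP is a PAR bZIP factor that carries the rhythm to output genes through D-boxes. In brown fat REV-ERBα is known as a repressor of thermogenic genes, and Per1 is known as a gene that answers to cAMP through its promoter. Cells in culture that have not been synchronised drift apart in phase, so that a bulk measurement averages over phases, and in bulk RNA fewer cells with a transcript and less transcript per cell cannot be told apart.

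The oligonucleotides are shown because each comparison between LNAs rests on them, in lower case and as the study lists them:
ctrlA: aacacgtctatacgc
LNA1: gatgactgagattaga
LNA2: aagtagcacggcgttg
LNA1 and LNA2 are each 16 bases long, and the reverse complement of each was found whole in the annotated Gm15551 transcripts. The longest exact run complementary to LNA2 in any transcript of a clock gene was 10 bases, in Cry1, and 0.263% of the 55450 annotated genes held a run at least as long. For LNA1 the longest run was 8 bases, in Per3, Cry2 and Nr1d2, a length that 22.6% of all genes reached. For ctrlA, of 15 bases, it was 8 bases in Per3, reached by 5.15% of genes. Only exact runs in annotated transcripts were searched, not introns outside them or sites with mismatches. The part of such runs in any level was not tested.

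Promoter windows from RefSeq (GRCm38.p6, 250 bases before to 50 after the annotated start) were matched by symbol for 9 of the 10 genes, with 13 windows in all. They were searched on both strands for the E-box CACGTG, the E′-box CACGTT, the cAMP response element TGACGTCA, the D-boxes TTATGTAA and TTACGTAA and the ROR element TAGGTCA. No match of 1 motif overlapped that of another in these genes. The E-box was found in Per1 and Cry1 and in 8.09% of the 27025 genes with a window. The E′-box was found in Cry1, Cry2 and Nr1d1 and in 5.44% of all genes. The D-box was present in Per3 alone among the clock genes and in 1.23% of all genes, and the ROR element in Arntl alone and in 2.97%. The cAMP response element was in 0 of the 9 genes and in 2.03% of all genes, which says only that these letters are not in these windows. The 250 bases upstream of the start are shown for the 5 genes whose level differed in 1 direction in every isoproterenol pair, with matched motifs in capitals:
Nr1d1, chr11:98775378-98775627, minus strand: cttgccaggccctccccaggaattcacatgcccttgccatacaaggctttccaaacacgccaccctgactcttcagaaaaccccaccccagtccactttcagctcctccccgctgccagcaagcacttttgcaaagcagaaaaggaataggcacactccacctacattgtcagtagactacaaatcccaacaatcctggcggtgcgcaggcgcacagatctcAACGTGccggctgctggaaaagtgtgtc
Per1, chr11:69098699-69098948, plus strand: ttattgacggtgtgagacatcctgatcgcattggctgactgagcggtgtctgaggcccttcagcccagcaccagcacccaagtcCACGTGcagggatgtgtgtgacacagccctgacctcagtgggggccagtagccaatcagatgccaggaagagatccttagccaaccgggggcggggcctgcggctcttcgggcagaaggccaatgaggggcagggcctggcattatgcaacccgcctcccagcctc
Per3, chr4:151044666-151044915, minus strand: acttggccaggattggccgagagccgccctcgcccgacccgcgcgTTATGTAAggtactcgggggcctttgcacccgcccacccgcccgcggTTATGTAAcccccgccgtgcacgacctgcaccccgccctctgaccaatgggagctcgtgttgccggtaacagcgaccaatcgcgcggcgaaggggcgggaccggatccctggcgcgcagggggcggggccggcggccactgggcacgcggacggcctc
Cry1, chr10:85185055-85185304, minus strand: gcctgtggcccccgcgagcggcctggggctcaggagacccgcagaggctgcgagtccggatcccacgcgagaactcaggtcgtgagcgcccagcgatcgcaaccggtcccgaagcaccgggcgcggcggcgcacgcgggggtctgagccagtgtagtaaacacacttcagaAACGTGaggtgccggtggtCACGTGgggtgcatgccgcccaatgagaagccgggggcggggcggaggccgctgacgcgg
Cry2, chr2:92434070-92434319, minus strand: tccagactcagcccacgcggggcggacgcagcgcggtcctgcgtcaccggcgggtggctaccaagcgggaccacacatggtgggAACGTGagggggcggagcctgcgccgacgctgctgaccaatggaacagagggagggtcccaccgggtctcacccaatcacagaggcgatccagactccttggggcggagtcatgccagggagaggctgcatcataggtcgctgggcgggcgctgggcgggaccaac
In Per3 the same D-box stands at 205 and at 158 bases before the start. In Cry1 an E′-box lies 79 and an E-box 60 bases before the start. The Per1 E-box and the Cry2 E′-box each begin 166 bases upstream, and the Nr1d1 E′-box begins 28 bases upstream. All 3 E′-boxes read AACGTG on the strand of the gene. In Arntl the ROR element, through which NR1D1 is known to act, begins at position 31 of the transcribed sequence of its other annotated start:
Arntl, chr7:113207533-113207555, plus strand: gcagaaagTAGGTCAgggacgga
A match is a description of the letters and not a bound site.

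Library totals ranged from 9167560 to 19723021 counts, and 3 counts corresponded to 0.17 to 0.306 CPM, the count scaled to library depth after TMM normalisation. Every clock gene stood well above this floor, from 88 counts in the lowest Per3 library to 3006 in the highest Clock library. The target Gm15551 was near the floor in all groups. It had 2 to 14 counts per ctrlA library, 1 to 12 with LNA1 and 1 to 13 with LNA2. These ranges overlap, but they pool both stimulation states. Unstimulated libraries numbered 2, 3 and 4 held 14, 8 and 7 counts with ctrlA. They held 12, 3 and 3 with LNA1 and 13, 3 and 1 with LNA2. After isoproterenol the counts were 9, 2 and 2 with ctrlA, 1, 4 and 1 with LNA1 and 4, 5 and 1 with LNA2. Counts this low do not settle the size of a knockdown. The paper reports that both targeting LNAs robustly lowered this RNA. The 6 adipocyte markers were detected in every library, with Fabp4 at 7081 to 20720 CPM. Of the 5 brown adipocyte markers, Elovl3 (188.9 to 409.1 CPM), Ppargc1a (41.9 to 92 CPM), Cidea (3.40 to 25.4 CPM) and Ucp1 (0.621 to 16.5 CPM) were detected in every library and Dio2 was at 0 in 9. The 5 preadipocyte or fibroblast markers were detected in every library, from Cd34 at 0.305 to 1.22 CPM to Col1a1 at 65.4 to 246.4 CPM. Of the 4 macrophage markers, Ptprc was at 0 in 11 and Adgre1 in 15 libraries, while Cd68 (7.83 to 42.4 CPM) and Csf1r (0.0887 to 2.31 CPM) were detected in all. Of the 3 endothelial markers, Kdr was at 0 in 15 and Cdh5 in 6 libraries, and Pecam1 was at 1.59 to 3.82 CPM. The 6 libraries numbered 2 stood apart. Mitochondrial genes took 7.86% to 9.79% of their counts and an rRNA gene 2.88% to 14.3%, against 2.56% to 4.97% and 0.285% to 1.04% in the other 12. Libraries numbered 2 deviated together from their group means, so that each contrast is given without and with the replicate number as a block in edgeR.

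Per exon length and averaged over the 18 libraries, the period gene Per1 had the highest level of the 10 genes, 17.6 ± 7.24 CPM per kb (SD, n = 18), and its relative Per3 the lowest, 1.66 ± 0.527 CPM per kb. Clock (11.2 ± 1.78) and Cry1 (11.01 ± 3.03 CPM per kb) came next, followed by Nr1d1 (8.23 ± 3.67), Per2 (6.27 ± 2.27), Nr1d2 (6.01 ± 1.29) and Dbp (4.68 ± 0.848). Cry2 (2.91 ± 0.904) and Arntl (2.65 ± 0.257 CPM per kb) were near the bottom of the order. Of the neighbours in this order, only Dbp and Cry2 kept their order in all 18 libraries, and Arntl was above Per3 in 17. The top of the order turned with the replicate number: Per1 was above Clock in 12 libraries, all those numbered 3 and 4, and below it in all 6 numbered 2, whereas Clock was above Cry1 in those 6 only. Per2 exceeded Nr1d2 in 10 of the 12 libraries numbered 3 and 4 and in 0 of the 6 numbered 2. Nr1d1 exceeded Per2 in 11 of 18 libraries, in 3, 5 and 3 of the 6 of each number, but this count pools both stimulation states. With ctrlA the mean of Nr1d1 (3.077 kb of exons) was 17.7 CPM unstimulated and 31.1 CPM after isoproterenol. That of Per2 (5.856 kb) was 33.7 and 30.8 CPM. Per exon length these ctrlA means were thus nearly level when unstimulated, and Nr1d1 was above Per2 after isoproterenol. Arntl, the least variable, ranged from 16.4 to 22.3 CPM, while Nr1d1 ranged from 9.98 to 46.5 CPM.

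**Figure D1:**
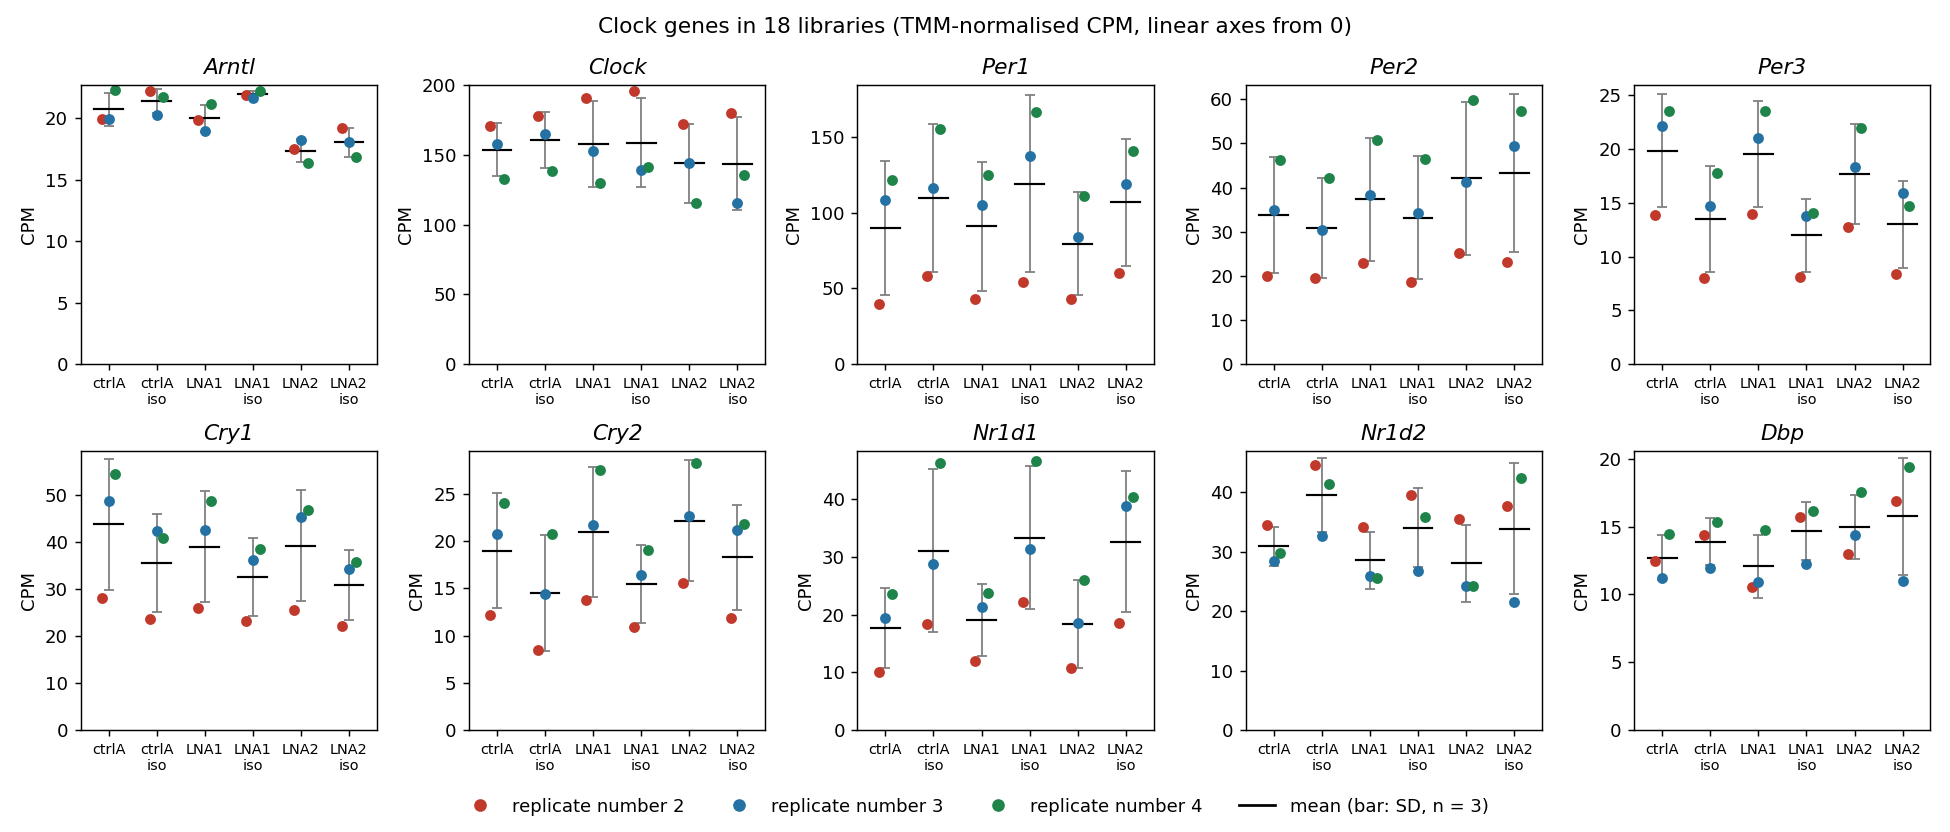
TMM-normalised CPM (linear axis from 0) of each clock gene in the 6 groups, with 3 libraries per group coloured by replicate number and with the mean and SD. The replicate 2 libraries are the lowest of their group for Per1, Per2, Per3, Cry1, Cry2 and Nr1d1 and the highest for Clock, while Arntl lies between 16.4 and 22.3 CPM throughout.

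The largest differences of the clock genes were those between replicate numbers. With the number as a term of the model, 8 of the 10 genes differed by number at an adjusted p below 0.001, where 50.6% of all genes did so, and the exceptions were Arntl and Dbp. Their directions differed. Per1 was 49.7 ± 8.81 CPM in the 6 replicate 2 libraries and 124.2 ± 22.7 CPM in the 12 others (SD), a log2 difference of 1.32 (SE 0.059, adjusted p 1.49e-11). Per2 was 21.6 ± 2.52 against 44.3 ± 9.13 CPM, with a log2 difference of 1.01 (SE 0.051). For both genes the libraries of number 2 and the others did not overlap.

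Nr1d1 was higher in numbers 3 and 4 by 0.99 on the log2 scale, Cry2 by 0.83, Cry1 by 0.79 and Per3 by 0.78 (SE 0.045 to 0.073). Cry1 ranged from 22.2 to 28.1 CPM in number 2 and from 34.2 to 54.4 CPM elsewhere, while Nr1d1, Cry2 and Per3 overlapped. Among unstimulated libraries alone Nr1d1, Cry2 and Per3 did not overlap either. How many of all genes did not overlap between numbers was not counted. Clock went the other way and was highest in number 2, where it ranged from 170.5 to 195.9 CPM against 115.2 to 165.1 CPM elsewhere (log2 -0.39, SE 0.059, adjusted p 1.69e-05). Nr1d2 was also higher in number 2, with a log2 difference of -0.34 (SE 0.084, adjusted p 0.00157) between the others and it. Its unstimulated libraries ranged from 34.1 to 35.4 CPM in number 2 and from 24.3 to 29.8 CPM elsewhere. Arntl (log2 -0.02, adjusted p 0.713) and Dbp (log2 0.02, adjusted p 0.841) did not pass this comparison. Dbp differed between the other 2 numbers, with 11.95 ± 1.31 CPM in number 3 and 16.3 ± 1.89 CPM in number 4 (SD, n = 6 each), and had an adjusted p of 0.001 over the 3 numbers. The mitochondrial and rRNA shares given above moved with number 2, as did the summed level of 6 adipocyte markers (18040 to 27980 CPM in number 2 and 13410 to 19980 CPM elsewhere). The summed level of 5 preadipocyte or fibroblast markers moved the other way, with 105.3 to 181.8 CPM in number 2 and 156.8 to 302.6 CPM elsewhere. Their part was not tested, and the hour of harvest, the culture and the number cannot be told apart here.

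The first question was whether 24 h of isoproterenol moved the clock genes. Nr1d1 was higher and Per3 lower in all 9 pairs of libraries with the same LNA and number, Per1 was higher and Cry1 and Cry2 lower in all 9 pairs too, and Arntl and Clock stayed near their unstimulated level. Altogether 5 of 10 genes went 1 way in 9 of 9 pairs, where 15.3% of all genes did. Without the block 0 of the 10 genes were called in edgeR at an adjusted p below 0.05 and a log2 fold change beyond 0.5, where 3.2% of all genes were called. At an unadjusted p below 0.05 there were 2, Per3 and Nr1d1, beside 15% of all genes, and DESeq2 called 1, Nr1d1 (adjusted p 0.0306), among 629 genes in all. With the replicate block 2 of 10 were called, Nr1d1 up and Per3 down, against 7% of all genes. With no fold limit the blocked count was 6 of 10, with 3 in each direction, against 26.4% of all genes. In what follows rose and fell stand for an adjusted p below 0.05 with the block.

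Nr1d1, the repressor receptor, showed the largest response of the 10. With ctrlA it measured 9.98, 19.5 and 23.5 CPM in unstimulated replicates 2, 3 and 4, and 18.3, 28.8 and 46.1 CPM after isoproterenol. With LNA1 the values were 11.97, 21.4 and 23.7 CPM before and 22.1, 31.4 and 46.5 CPM after. With LNA2 they were 10.7, 18.6 and 25.9 CPM before and 18.5, 38.8 and 40.4 CPM after. Each stimulated library was above its own partner, while stimulated replicate 2 libraries overlapped unstimulated libraries of the other numbers. The log2 fold change was 0.82 without the block (SE 0.257, adjusted p 0.0947) and 0.81 with it (SE 0.065, adjusted p 1.37e-07). Pair differences ran from 0.55 to 1.06. Without the replicate 2 libraries it was called with the block (log2 0.79, adjusted p 0.000365) and without it (log2 0.80, adjusted p 0.00478), while the fit without the block did not call it without number 3 (log2 0.86, adjusted p 0.726) or number 4 (log2 0.78, adjusted p 0.408). With each library left out in turn the blocked value ran from 0.77 to 0.85. Nr1d1 (chr11:98767932-98775333, minus strand) shares 263 exonic bases with Thra on the opposite strand, whose log2 fold change was 0.01 (adjusted p 0.987). Its relative Nr1d2 (chr14:18204054-18239127) rose by 0.29 with the block (SE 0.081, adjusted p 0.0155) and was higher in 8 of 9 pairs. It did not pass without the replicate 2 libraries (log2 0.31, adjusted p 0.138) or without the replicate 4 libraries (log2 0.13, adjusted p 0.236).

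Of the period genes, Per3 and Per1 went in opposite directions. Per3 (chr4:151003652-151044665, minus strand) with ctrlA measured 13.8, 22.1 and 23.6 CPM unstimulated and 8.06, 14.7 and 17.8 CPM stimulated in replicates 2, 3 and 4. With LNA1 it went from 14, 21.03 and 23.5 CPM to 8.07, 13.8 and 14.1 CPM. With LNA2 it went from 12.7, 18.4 and 21.9 CPM to 8.35, 15.96 and 14.7 CPM. Per3 was thus lowest in the 3 stimulated replicate 2 libraries, at about 8 CPM. It fell by 0.58 on the log2 scale with the block (SE 0.057, adjusted p 1.22e-06) and the value without the block was -0.57 (SE 0.198, adjusted p 0.143). Without the replicate 2 libraries it was called with the block (log2 -0.53, adjusted p 0.000912) and without it (log2 -0.53, adjusted p 0.00152), but without the block it was not called without number 3 (log2 -0.63, adjusted p 0.74) or number 4 (log2 -0.56, adjusted p 0.572).

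Per1 (chr11:69095217-69109960, plus strand), whose known role is that of a repressor and of an early cAMP-responsive gene, was 86.8 ± 35.5 CPM before and 111.9 ± 43.7 CPM after isoproterenol (SD, n = 9 each). The 2 ranges, 39.5 to 124.6 and 54.1 to 166.3 CPM, overlapped, but pair differences were all above 0, from 0.10 to 0.55. It rose by 0.38 (SE 0.052, adjusted p 4.29e-05 with the block), whereas the fit without the block gave 0.37 with an SE of 0.316 (adjusted p 0.725). Per2 (chr1:91415982-91459324, minus strand) averaged 37.7 ± 13.4 CPM before and 35.7 ± 13.9 CPM after it (SD, n = 9 each), lower in 8 of 9 pairs, and did not pass with the block (log2 -0.09, SE 0.045, adjusted p 0.151).

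Both cryptochromes, the repressors that act with the PER proteins, were lower after isoproterenol. Cry1 (chr10:85131700-85185064, minus strand) ranged from 25.6 to 54.4 CPM with a median of 45.3 unstimulated, and from 22.2 to 42.2 CPM with a median of 35.8 stimulated. It fell by 0.29 with the block (SE 0.041, adjusted p 5.08e-05). With no block its adjusted p was 0.569 over all libraries, 0.0048 without those numbered 2 (log2 -0.34), 1 without those numbered 3 and 0.951 without those numbered 4. Cry2 (chr2:92403646-92434043, minus strand) ranged from 12.2 to 28.2 CPM with a median of 21.6 unstimulated and from 8.44 to 21.8 CPM with a median of 16.4 stimulated. It fell by 0.38 with the block (SE 0.055, adjusted p 9.08e-05), and its exons share 295 bases with D930015M05Rik on the opposite strand. Pair differences lay between -0.42 and -0.16 for Cry1 and between -0.53 and -0.10 for Cry2.

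The activators changed little. Arntl (chr7:113207465-113314126, plus strand) was 19.4 ± 1.81 CPM without and 20.5 ± 2.00 CPM with isoproterenol (SD, n = 9 each), with a log2 value of 0.08 (SE 0.047, adjusted p 0.243 with the block). Clock (chr5:76209868-76304792, minus strand) was 151.9 ± 23.8 and 154.3 ± 26.4 CPM (log2 0.02, SE 0.056, adjusted p 0.802). The output factor Dbp (chr7:45705088-45710203, plus strand) was 13.2 ± 2.28 and 14.8 ± 2.68 CPM. It was higher in 8 of 9 pairs and did not pass (log2 0.16, SE 0.072, adjusted p 0.121). Dbp shares 539 exonic bases with Sphk2 on the opposite strand. The summed level of 5 brown adipocyte markers was 244.8 to 424.3 CPM unstimulated and 344.4 to 538.9 CPM stimulated, that of 6 adipocyte markers 16540 to 27980 and 13410 to 21530 CPM, and that of 5 preadipocyte or fibroblast markers 105.3 to 225.7 and 146.7 to 302.6 CPM. The summed level of 4 macrophage markers was 8.17 to 28.4 CPM unstimulated and 11.97 to 44.3 CPM stimulated. The part of these markers in the differences was not tested. Over the 10 genes the median absolute log2 fold change was 0.30 without the block, beside 0.14 over all genes tested.

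**Figure D2:**
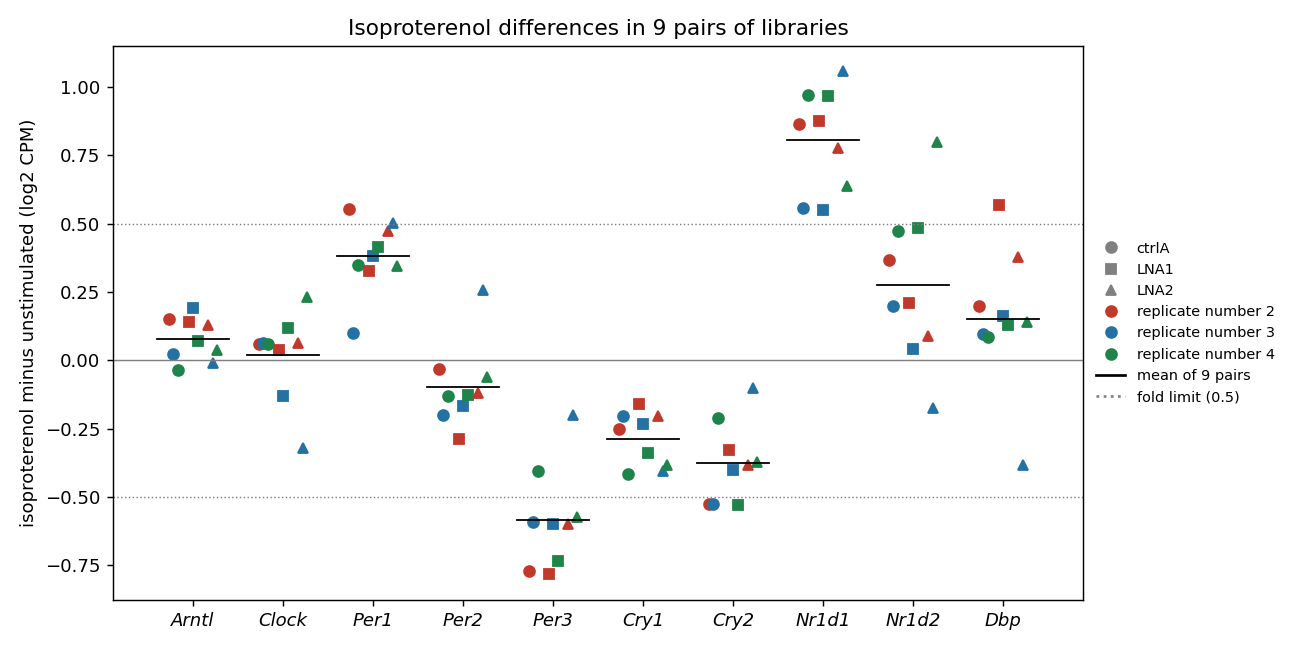
Difference between the isoproterenol and the unstimulated library of the same LNA and replicate number (log2 CPM) for each clock gene, with 9 pairs per gene. The shape gives the LNA, the colour the replicate number, the line the mean, and the dotted lines the fold limit of 0.5. All 9 points are above 0 for Nr1d1 (0.55 to 1.06) and Per1 and below 0 for Per3, Cry1 and Cry2.

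Each LNA was then considered alone, 3 libraries against 3. With the block Nr1d1 rose by 0.80 with ctrlA (SE 0.112, adjusted p 0.000232), 0.80 with LNA1 (SE 0.114, adjusted p 0.000193) and 0.83 with LNA2 (SE 0.112, adjusted p 0.000186). Per3 fell by 0.58 with ctrlA, 0.71 with LNA1 and 0.45 with LNA2 (adjusted p 0.00101, 0.000176 and 0.00859). The responses of Per1 were 0.33, 0.38 and 0.44, and those of Cry1 were -0.29, -0.25 and -0.34, all with an adjusted p below 0.05. Cry2 passed with ctrlA (-0.41) and LNA1 (-0.43) and missed the limit with LNA2 (-0.28, adjusted p 0.0738). Without the block none of the 10 genes passed for any LNA alone in edgeR, and the adjusted p was 1, 0.878 and 0.945 for Nr1d1 and 1, 0.775 and 1 for Per3. In that fit 0 of 10 had an unadjusted p below 0.05 for any LNA, beside 5.43%, 6.94% and 5.99% of all genes with ctrlA, LNA1 and LNA2. Whether these responses differed between LNAs was tested by interaction terms. For LNA1 0 of 10 clock genes and 0% of all genes passed in edgeR, and for LNA2 likewise 0 of 10 and 0%. At an unadjusted p below 0.05 without the block the count of clock genes was also 0, beside 0.702% of all genes for LNA1 and 0.776% for LNA2. DESeq2 called 0 of the clock genes. The SE of the interaction of Per1 was 0.772 without the block and 0.128 with it, beside a response of 0.38. With the block the largest interaction was that of Per2 with LNA2, 0.16 (SE 0.111, adjusted p 0.81).

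The effect of LNA1 against ctrlA, averaged over both stimulation states, was small for every clock gene. In edgeR 0 of the 10 were called without the block, where 0.442% of all genes were, and DESeq2 called 0. At an unadjusted p below 0.05 without the block there were 0, beside 6.01% of all genes. With the block 0 of 10 were called with the fold limit (2.43% of all genes) and 0 of 10 with no fold limit (7.8% of all genes). Cry1 and Nr1d2 were lower and Nr1d1 higher in all 6 pairs, which makes 3 of 10 genes where 20.1% of all genes went 1 way. The smallest blocked adjusted p among them was that of Cry1 (0.102), with a log2 value of -0.14 (SE 0.050). The value was -0.17 for Nr1d2 and 0.13 for Nr1d1, and the extremes of the 60 pair differences over the 10 genes were -0.33 for Per3 and 0.37 for Cry2.

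With LNA2 the repressor genes Per2 and Cry2 were higher and Arntl and Cry1 lower than with ctrlA, all by less than the fold limit. Called genes were 0 of 10 without the block (1.42% of all genes) and 0 of 10 with it (5.53%). Without the block 1 of the 10 genes, Arntl, had an unadjusted p below 0.05, beside 10.6% of all genes, and DESeq2 called 0. With the block and no fold limit 4 of 10 passed, 2 up and 2 down, where 20.6% of all genes passed. These same 4 were the genes that went 1 way in 6 of 6 pairs, beside 22% of all genes. LNA1 and LNA2 were compared with the same ctrlA libraries, so their values stand side by side and are not independent. The summed brown adipocyte markers were 329 to 538.9 CPM with ctrlA and 253 to 420.4 CPM with LNA2, the adipocyte markers 15470 to 27980 and 13410 to 23870 CPM, the preadipocyte or fibroblast markers 105.3 to 249.3 and 119.1 to 302.6 CPM, and the macrophage markers 8.17 to 24.7 and 14.03 to 44.3 CPM. Their part in the LNA2 differences was not tested.

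Per2 in unstimulated replicates 2, 3 and 4 measured 20.0, 34.9 and 46.3 CPM with ctrlA, and 25.2, 41.2 and 59.7 CPM with LNA2. After isoproterenol it measured 19.6, 30.4 and 42.3 CPM with ctrlA and 23.2, 49.4 and 57.3 CPM with LNA2. Each LNA2 library was above its partner, by 0.24 to 0.70 on the log2 scale, although the groups overlapped across numbers. The blocked log2 fold change was 0.39 (SE 0.055, adjusted p 0.000142) and it was 0.47 without the replicate 2 libraries (adjusted p 0.00262). Without the block the adjusted p was 0.813. With LNA1 the Per2 value was 0.12 (SE 0.056, adjusted p 0.214).

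The LNA2 libraries of Arntl were separate from those of ctrlA without regard to number. It measured 17.5, 18.2 and 16.4 CPM with LNA2 in unstimulated replicates 2, 3 and 4, and 19.2, 18.1 and 16.8 CPM after isoproterenol. The 6 ctrlA libraries ranged from 19.9 to 22.3 CPM and the 6 LNA1 libraries from 19.0 to 22.2 CPM. All LNA2 values were thus below every ctrlA value, and 1 LNA2 library (19.2 CPM) lay above the lowest LNA1 library. The log2 fold change was -0.25 without the block (SE 0.077, adjusted p 0.155) and -0.25 with it (SE 0.058, adjusted p 0.00604). It no longer passed without the replicate 2 libraries (log2 -0.25, adjusted p 0.0746) and without the replicate 4 libraries (log2 -0.17, adjusted p 0.161). In DESeq2 without the block the adjusted p was 0.0373.

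Cry2 rose with LNA2 by 0.30 with the block (SE 0.067, adjusted p 0.00519), from 16.7 ± 5.99 CPM with ctrlA to 20.2 ± 5.75 CPM (SD, n = 6 each). The log2 value was 0.28 without the replicate 2 libraries (adjusted p 0.0608) and 0.27 without the replicate 3 libraries (adjusted p 0.063), neither of which passed. Cry1 fell by 0.18 (SE 0.050, adjusted p 0.0194), from 39.6 ± 11.8 to 35.0 ± 9.96 CPM, and no longer passed without the libraries of any 1 number (log2 -0.18, -0.16 and -0.16 with adjusted p 0.0959, 0.106 and 0.187 without numbers 2, 3 and 4). It also missed the limit in 3 of 18 fits that left out 1 library: unstimulated ctrlA replicate 4 (adjusted p 0.0669), stimulated ctrlA replicate 3 (0.0761) and unstimulated LNA2 replicate 2 (0.0709). The remaining values with LNA2 were -0.14 for Clock, -0.08 for Per1, -0.10 for Per3, 0.08 for Nr1d1, -0.19 for Nr1d2 and 0.20 for Dbp, none with an adjusted p below 0.05.

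**Figure D3:**
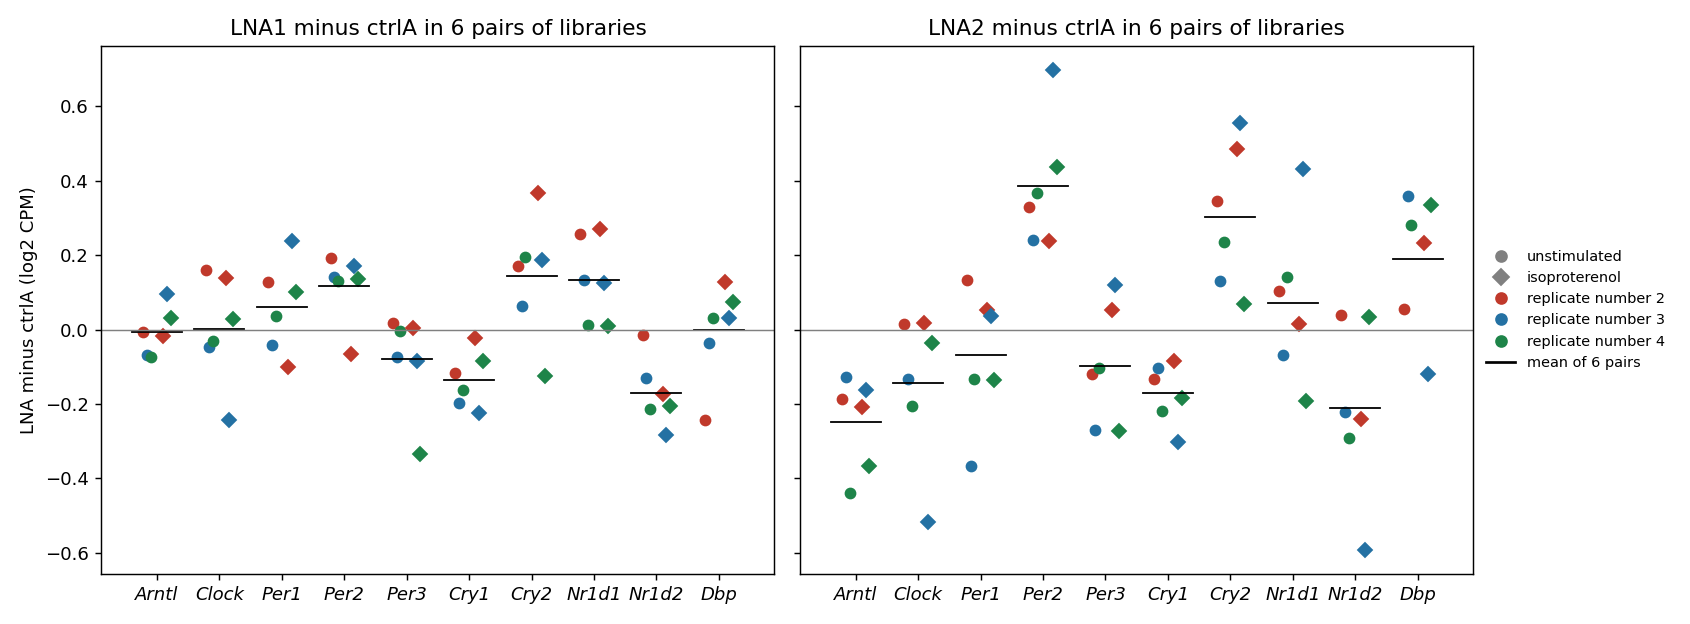
Difference from ctrlA of LNA1 (left) and LNA2 (right) within pairs of the same stimulation and replicate number (log2 CPM), with 6 pairs per gene and a line at the mean. With LNA2 all 6 points are above 0 for Per2 (0.24 to 0.70) and Cry2 and below 0 for Arntl and Cry1.

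LNA2 was also set against LNA1. In edgeR 0 of 10 clock genes were called without the block (0.923% of all genes) and 0 of 10 with it (4.11%). At an unadjusted p below 0.05 without the block there was 1, beside 9.2% of all genes, and DESeq2 called 0. With the block and no fold limit 2 of 10 passed, where 15.4% of all genes did. Arntl fell by 0.24 (SE 0.058, adjusted p 0.0107) and Per2 rose by 0.27 (SE 0.055, adjusted p 0.00371). The Arntl difference did not pass without replicate 2 (log2 -0.27, adjusted p 0.0779) or without replicate 4 (log2 -0.17, adjusted p 0.201). That of Per2 passed without replicate 2 (adjusted p 0.0275) and not without replicate 4 (log2 0.28, adjusted p 0.102). In the joint test of any difference among the 6 groups 0 of 10 clock genes passed an adjusted p of 0.001 without the block, where 0.455% of all genes did, 1 (Arntl) had an unadjusted p below 0.05, and DESeq2 called 0. With the block 6 of 10 passed, beside 8.93% of all genes: Per1, Per2, Per3, Cry1, Cry2 and Nr1d1. Of these, Nr1d1 and Per3 passed in all 18 fits that left out 1 library, and the others in 3 to 7 of them.

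Ratios of 2 clock genes within a library do not depend on scaling between libraries and were described without a test. The log2 ratio of Nr1d1 to Arntl averaged -0.15 ± 0.539 unstimulated and 0.58 ± 0.58 stimulated (SD, n = 9 each) and was higher after isoproterenol within every pair, by 0.36 to 1.07. The ratio of Per2 to Per1 was lower after isoproterenol in every pair, with a mean difference of -0.48 ± 0.136 (SD, n = 9). With LNA2 the ratio of Per2 to Arntl was higher than with ctrlA in every pair, from 0.37 to 0.87, with group means of 0.54 ± 0.514 for ctrlA, 0.66 ± 0.574 for LNA1 and 1.18 ± 0.654 for LNA2 (SD, n = 6 each). The ratio of Cry1 to Cry2 was 1.27 ± 0.213 with ctrlA, 0.99 ± 0.115 with LNA1 and 0.79 ± 0.126 with LNA2. It was lower with LNA2 in all 6 pairs, with differences from -0.86 to -0.23. Dbp to Arntl was -0.67 ± 0.114 with ctrlA and -0.23 ± 0.343 with LNA2, and pair differences ran from 0.04 to 0.73.

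**Figure D4:**
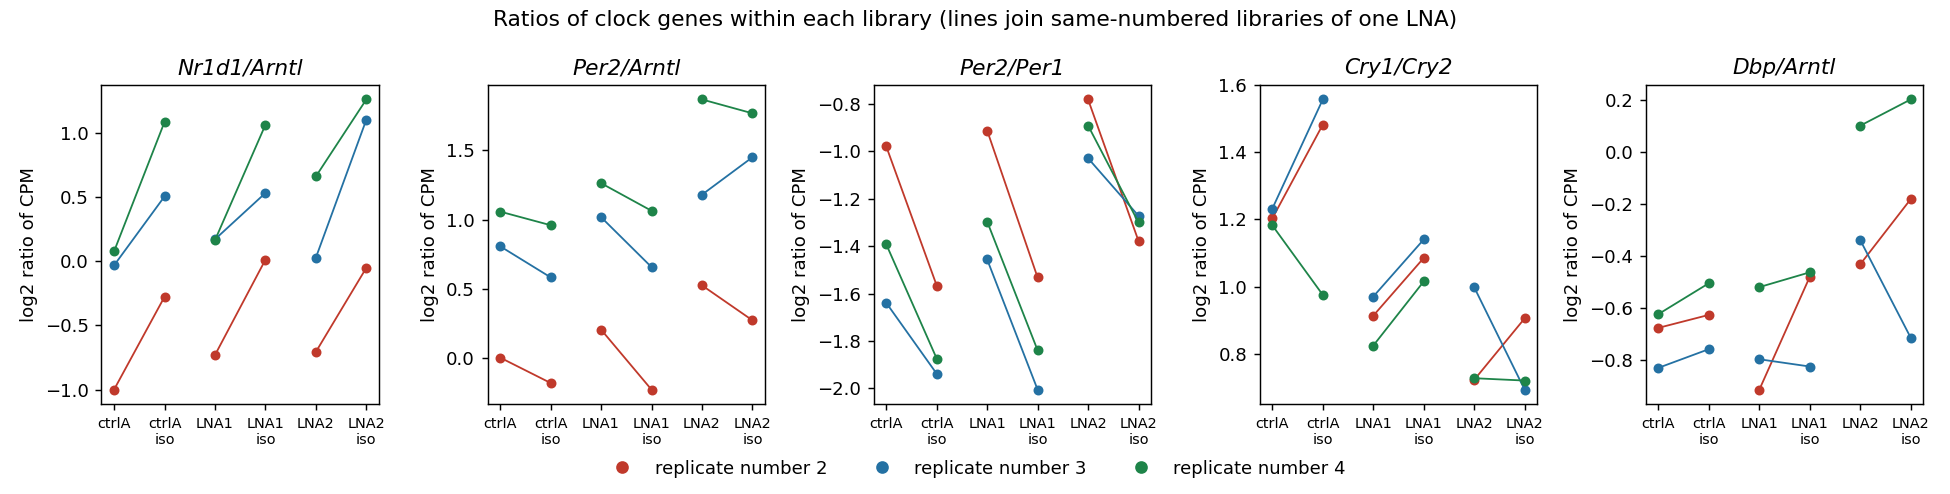
Log2 ratio of CPM of 2 clock genes in each of the 18 libraries, with lines from the unstimulated to the isoproterenol library of the same LNA and replicate number (axes do not start at 0). Every Nr1d1/Arntl line goes up and every Per2/Per1 line goes down, and Per2/Arntl is lowest in replicate 2.

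The levels of the clock genes across the 18 libraries, centred within each replicate number, were compared by Pearson's r as a description. The points share libraries and the split by stimulation. Nr1d1 went with Per1 (r = 0.867) and against Per3 (-0.89) and Cry1 (-0.876), and Per3 went with Cry1 (0.815) and Cry2 (0.757). Arntl went against Per2 (-0.817). For the 4 clock genes with the smallest p in the joint test without the block, the 3 tested genes of most similar pattern were sought in the same way. They were Arf3 (0.931), Bfar (0.929) and Ttpal (0.91) for Arntl, and Ccn5 (0.963), Ramp3 (0.959) and Kcnk3 (0.958) for Nr1d1. For Per3 they were Aco1 (0.979), Abhd15 (0.969) and Acat2 (0.969), and for Nr1d2 Skil (0.907), Gm37091 (0.901) and Gk (0.899).

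A list of 25 further clock-related genes was examined, of which 24 were tested and Npas2, a relative of Clock with 31 counts over all libraries, was not. With isoproterenol 1 of 24 was called up and 0 down without the block in edgeR, beside 3.2% of all genes. With the block 1 was called up and 1 down, beside 7% of all genes. At an unadjusted p below 0.05 without the block there were 9, beside 15% of all genes. The gene called up in both fits was Rorb, a nuclear receptor that activates through the ROR element at which NR1D1 represses. Rorb measured 17.7, 12.3 and 11.8 CPM with ctrlA in unstimulated replicates 2, 3 and 4 and 35.6, 34.7 and 32.1 CPM after isoproterenol. Over all LNAs the mean went from 13.8 ± 3.87 to 30.9 ± 7.35 CPM (SD, n = 9 each), the groups did not overlap, and it was higher in 9 of 9 pairs. The log2 fold change was 1.16 (SE 0.185, adjusted p 0.00142), and 1.23 without the replicate 2 libraries (adjusted p 2.16e-06). The gene called down with the block was Nampt, the rate-limiting enzyme of NAD salvage and a known clock output. Nampt went from 439.4 ± 112.8 to 304.6 ± 92.2 CPM (SD, n = 9 each), lower in 9 of 9 pairs, with a blocked log2 value of -0.55 (SE 0.058, adjusted p 2.98e-06) and an adjusted p of 0.145 without the block. In 1 of 18 blocked fits that left out 1 library, that without stimulated LNA2 replicate 3, it was not called, since the log2 value of -0.497 lay inside the fold limit (adjusted p 4.52e-08). With no fold limit and the block 5 of 24 rose and 9 fell, beside 26.4% of all genes that passed in either direction, and those that fell included the repressor Ciart (-0.48), and the PAR bZIP genes Tef (-0.18) and Hlf (-0.49).

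With LNA1 0 of the 24 genes were called in either edgeR fit, beside 0.442% of all genes without and 2.43% with the block. At an unadjusted p below 0.05 there were 0 without the block and 2 with it, beside 6.01% and 22.2% of all genes. With the block and no fold limit 0 rose and 1 fell, Csnk1e, a kinase of PER proteins (log2 -0.18, SE 0.050, adjusted p 0.0418), beside 7.8% of all genes. With LNA2 0 were called up and 1 down in both fits, beside 1.42% of all genes without and 5.53% with the block. With the block and no fold limit 1 rose and 4 fell, beside 20.6% of all genes, and Nampt was among those that fell (log2 -0.35, SE 0.071, adjusted p 0.00273, lower in 6 of 6 pairs). The gene called was Btrc, a ubiquitin ligase subunit that marks PER proteins for degradation. It measured 23.9, 25.8 and 29.3 CPM with ctrlA and 14.9, 13.9 and 10.7 CPM with LNA2 in unstimulated replicates 2, 3 and 4. After isoproterenol it measured 20.97, 23.7 and 22.8 CPM with ctrlA and 13.01, 13.1 and 8.53 CPM with LNA2. The LNA2 libraries lay below all others, and the log2 fold change was -0.98 (SE 0.124, adjusted p 0.000723). With LNA1 it was 0.03 (adjusted p 1), and LNA2 against LNA1 gave -1.01 (SE 0.125, adjusted p 0.00112). The longest exact run complementary to LNA2 in annotated Btrc transcripts was 7 bases. Introns outside these transcripts and sites with mismatches were not searched, and the part of such runs in the Btrc level was not tested. The median log2 value of the 24 genes was -0.09 with isoproterenol and -0.04 with LNA2, beside 0.00 and -0.02 over all genes tested.

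**Figure D5:**
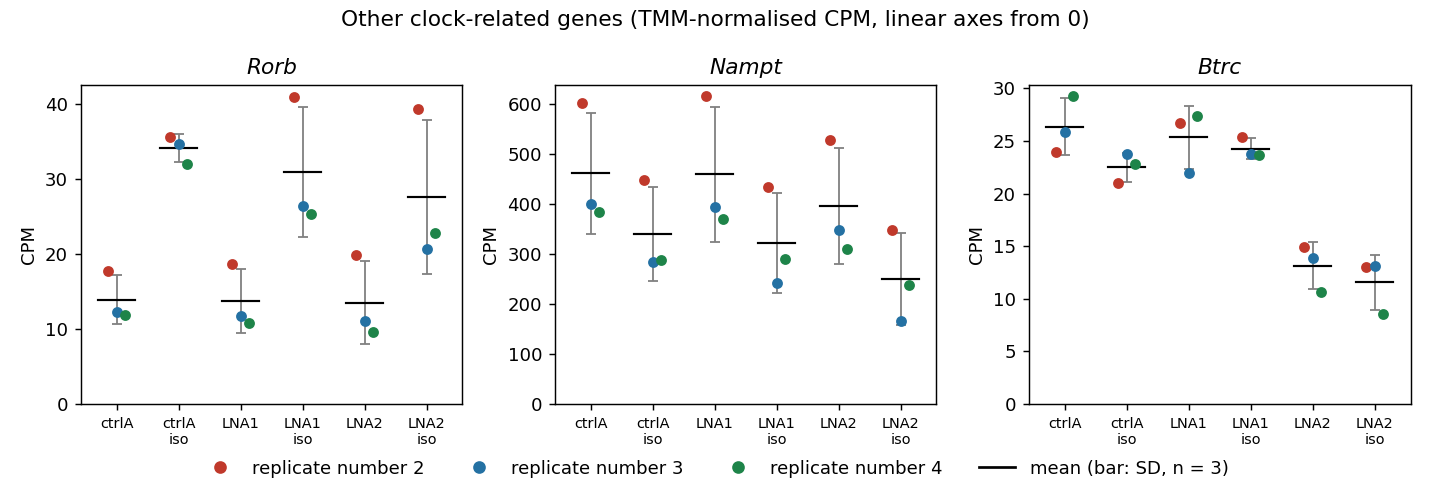
TMM-normalised CPM (linear axis from 0) of Rorb, Nampt and Btrc in the 6 groups, with 3 libraries per group coloured by replicate number and with the mean and SD. Rorb is above 20 CPM in all 9 stimulated libraries and below it in the unstimulated ones, and Btrc is below 15 CPM in all LNA2 libraries only.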

How the data were processed

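Polyadenylated RNA of 18 libraries was analysed. Per the labels and the study's methods, the authors prepared paired-end libraries with the NEBNext Ultra II kit, filtered reads by cutadapt and estimated abundance in salmon with the Gencode M22 transcriptome (GRCm38), alone or joined with RNAcentral, and the submitters' processing notes also name bcl2fastq and DESeq2. Program versions are not given in the sources used here, nor is the use of strand, so counts of genes that overlap on opposite strands are uncertain. The deposited values are expected counts per gene in whole numbers, not scaled to depth, for 54347 genes. Reads carried no molecular identifiers, and the floor of 3 counts takes no account of spread beyond counting error.

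The members and gene lists were chosen with earlier results of these data known. Counts were fitted with edgeR 4.0.16 in R 4.3.3, after filterByExpr (minimum count 10, minimum total 15) and TMM, by a quasi-likelihood model with 1 term per group over all libraries. P values were two-sided and adjusted by Benjamini-Hochberg over all 14949 genes. Contrasts were called at an adjusted p of 0.05 and an absolute log2 fold change above 0.5, interactions at 0.05 and the joint test at 0.001. CPM is TMM-normalised, and log2 CPM used a prior count of 2. Within groups, chi-square per degree of freedom ran from 4.31 to 177 over 18 pairs of libraries, so each library was counted once. Deviations from group means correlated with r from 0.649 to 0.722 over the 15 pairs of libraries numbered 2. The number was therefore also fitted as a block. Among libraries numbered 3 r was 0.252 to 0.505, and among those numbered 4 it was 0.24 to 0.47. In groups of 3, a shift shared by number 2 alone also makes these deviations correlate. They therefore do not show that libraries numbered 3 or 4 were paired. The pairing comes from the labels' replicate numbers and, for number 2, from the correlation, not from a stated batch. Alternatives were RLE scaling, DESeq2 1.42.0, no filter, no fold limit, only the groups of a contrast in the fit, and leaving out libraries or numbers. Combinations with the block and the test of the number were added after the data were seen. All 10 clock genes are named; of the other clock list every called gene is named, and Ciart, Tef, Hlf and Csnk1e were chosen after their values were seen. The fit without the block was tested on simulated data that held no effect of the replicate number. The blocked fit was not tested in this way. Coordinates are those of GENCODE M21 on GRCm38 (98.09% of genes by versioned identifier) and count from 1.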

Additional observations from a re-analysis of the deposited data

How the results depend on the processing

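Of the clock genes, 0 were called with isoproterenol without the block, 1 in DESeq2, 1 with no filter on low counts, 2 with the replicate block, 2 in DESeq2 with the replicate block and 2 without the libraries numbered 2. Over all genes these settings called 479, 629, 461, 1046, 991 and 726. When each library was left out in turn the count was 0 without and 2 with the block. With the replicate block and no fold limit the counts were 6 with isoproterenol, 4 with LNA2 and 2 in LNA2 against LNA1. In the joint test 0 clock genes were called without the block, and 6 with the replicate block in edgeR (1335 of all genes) as in DESeq2 (2851). With the block, 0 passed without the libraries numbered 2, 1 without those numbered 3 and 0 without those numbered 4 (150, 474 and 146 of all genes), and 2 to 6 when each library was left out. These fits have fewer samples. With LNA1 and in the interactions the counts stayed at 0 under every alternative that was run. With no filter and the block, Cry1 with LNA2 (adjusted p 0.0877) and Arntl in LNA2 against LNA1 (adjusted p 0.1) no longer passed an adjusted p of 0.05. The 12 differences of a clock gene that passed it with the block, 6 with isoproterenol, 4 with LNA2 and 2 in LNA2 against LNA1, kept their sign under every alternative that was run for them.

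Over all genes the block raised the calls from 66 to 364 with LNA1, from 213 to 826 with LNA2, from 138 to 615 in LNA2 against LNA1 and from 68 to 1335 in the joint test. In DESeq2 without the block they were 133 with LNA1, 338 with LNA2, 232 in LNA2 against LNA1 and 556 in the joint test. Without number 2 they were 180, 738, 443 and 111 in the same order of 4 tests, and without number 3 or number 4 they were 0 in each. With isoproterenol they were 92 without number 3 and 113 without number 4. With only the groups of the contrast in the fit LNA2 gave 125 and LNA2 against LNA1 70, and with no filter the joint test gave 116. The median fold change over all genes lay between -0.022 and 0.004 log2 units under TMM, RLE and the block. The lowest count of a clock gene in a library was 88, and the effect of depth on small differences was not tested.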
